A study of Mus musculus with 4 samples.

Results

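The antioxidant and glutathione enzymes were described in Purkinje cells, inhibitory neurons whose axons form the only output of the cerebellar cortex. The 40 genes were chosen by name, with earlier results of these data known. A gene was measured where a probe set of the array was annotated with its symbol alone. This held for 37 of the 40 genes, and 18193 genes in all were named in this way. Prdx1, Prdx5 and Prdx6 had no such probe set and were not analysed here. Where a gene had several probe sets, its level was taken from the probe set with the highest mean. The cells were cut by laser from frozen sections of the cerebellum of 2 intact male C57BL/6J mice aged 8 weeks, with 2 samples from each animal and no treatment. The samples are named by animal and sample as 1-1, 1-2, 2-1 and 2-2. All 4 belong to 1 group, so the only contrast that the labels allow is between the animals, and its p-values measure only the spread between these samples. The labels do not give the number of cells in a sample, or whether samples of 1 animal were separate captures.

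Superoxide dismutases turn superoxide, a by-product of respiration, into hydrogen peroxide. Catalase, the peroxiredoxins and the glutathione peroxidases then remove peroxides, and the last of these families oxidises glutathione in doing so. Thioredoxins, glutaredoxins and their reductases return oxidised proteins and glutathione to the reduced state at the expense of NADPH. Glutathione transferases couple glutathione to electrophiles, and the transcription factor Nfe2l2, held in check by Keap1, switches on many of these genes under oxidative stress. In brain tissue, glutathione synthesis and the response to Nfe2l2 are known to be stronger in astrocytes than in neurons, and neurons depend on astrocytes for glutathione precursors.

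Levels below are log2 signals after quantile normalization, with the number of arrays limiting their precision. The median deposited signal ran from 8.40 to 11.4 over the arrays. The background bound of an array is the level that 95 percent of 54 genes of non-brain organs did not exceed on it, and the 4 bounds lay between 5.78 and 6.13. All 12 measured Purkinje cell markers passed the bound on all 4 arrays, and so did 15 of 17 markers of Bergmann glia and astrocytes and 4 of 12 markers of granule cells. The summed signal of the glial list ran from 16302 to 16763 in the samples of animal 1 and from 13050 to 14242 in those of animal 2, and that of the granule cell list from 4251 to 5225 and from 1902 to 2073. Of these 54 genes, Tff1 and Krt1 passed on all 4 arrays. The summed signal of the Purkinje cell list ran from 66103 to 66719 and from 75011 to 75846. In these captures a change in the mix of cells and a change of RNA per cell cannot be told apart.

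Of the 37 genes measured, 24 (64.9%) exceeded the background bound on every array, 6 passed it on 1 to 3 arrays and 7 on none. Over all named genes the share was 27%. The set and the gene lists were chosen with earlier results of these data known. The gap between these shares is therefore a description and not a test of the set. The 24 included at least 1 gene of every role, among them the cytosolic and mitochondrial superoxide dismutases, all 3 measured peroxiredoxins, the peroxidases Gpx1 and Gpx4, and all 5 glutathione transferases. Among genes whose products are secreted or work in the endoplasmic reticulum, Prdx4 passed and the other 4 (Sod3, Gpx3, Gpx7 and Gpx8) lay below the bound on every array. Of 7 measured genes with mitochondrial products, 5 passed on all 4 arrays. The count rested in part on probe sets that can bind several transcripts or splice forms, which gave the level of 16 genes. Without such probe sets, 13 of 29 genes passed, against 20.1% of all named genes.

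**Figure D1:**
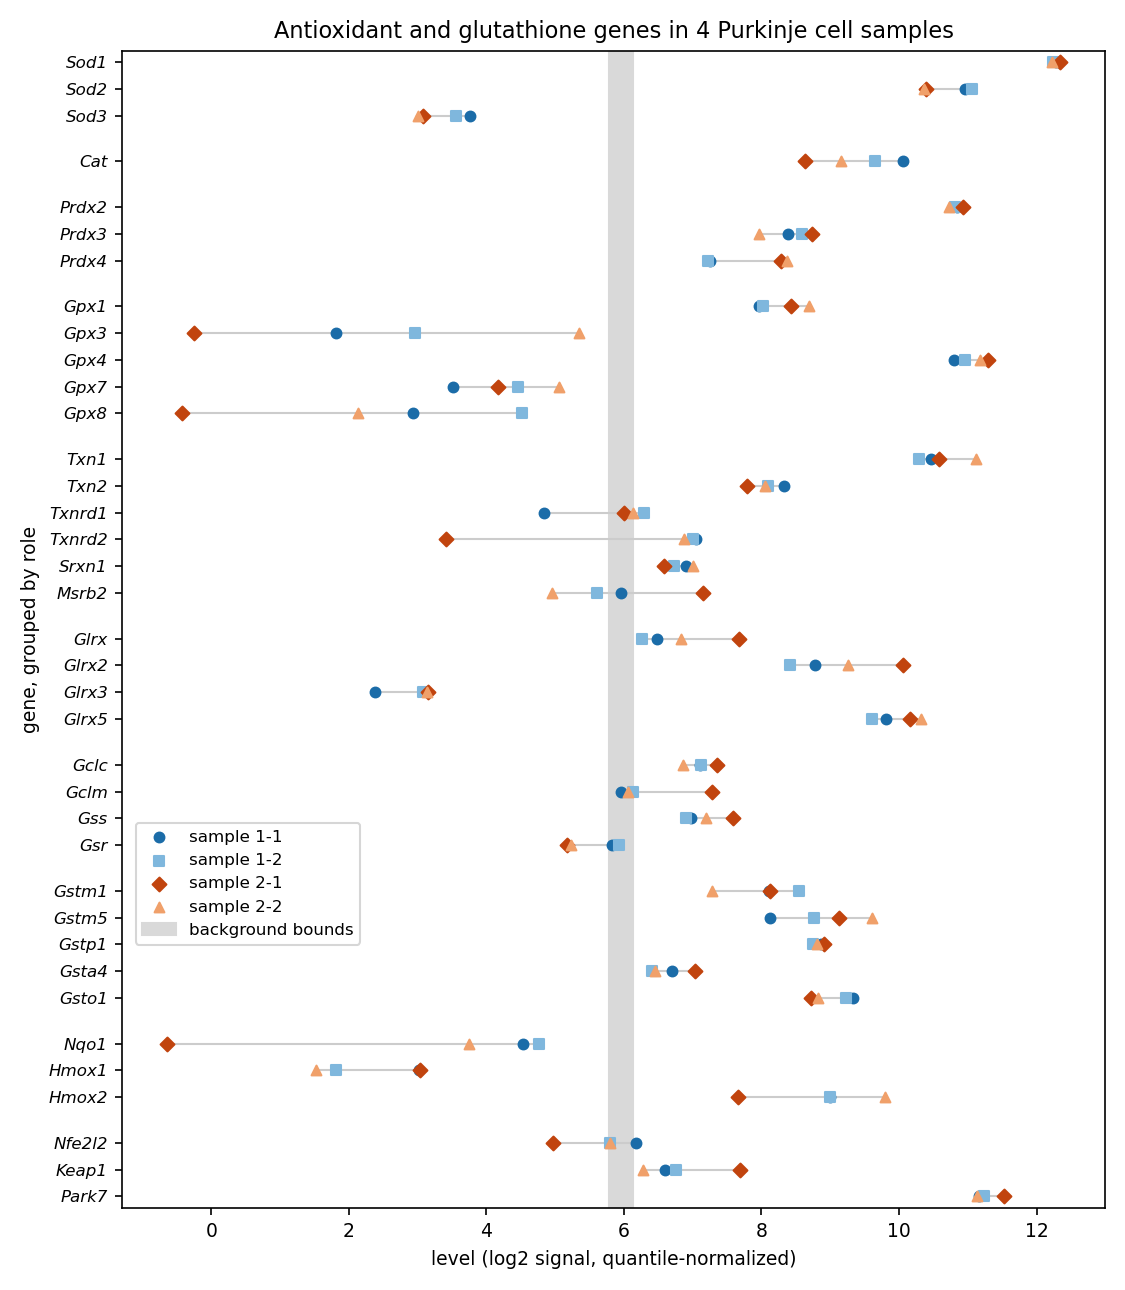
Level (log2 signal, quantile-normalized, horizontal axis) of each of the 37 genes, grouped by role, with 1 symbol per sample and the range of the 4 background bounds in grey. Of the genes shown, 24 lie to the right of the bound in all 4 samples, and Sod3, Gpx3, Gpx7, Gpx8, Glrx3, Nqo1 and Hmox1 lie to its left in all 4.

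Sod1, the cytosolic copper and zinc superoxide dismutase, had deposited signals of 4295, 4185, 5658 and 6073 in samples 1-1, 1-2, 2-1 and 2-2. After normalization its levels were 12.29, 12.24, 12.34 and 12.23. The 4 samples were nearly level, and the animals overlapped. Sod2, the manganese enzyme of mitochondria, stood at 10.95, 11.06, 10.39 and 10.36, with both samples of animal 2 below both of animal 1. Sod3, the extracellular enzyme, stood at 3.76, 3.56, 3.08 and 3.004, below the bound throughout. Catalase, the peroxide-splitting enzyme of peroxisomes, stood at 10.06, 9.65, 8.64 and 9.16. After normalization its animals did not overlap either, and animal 1 was the higher. Its deposited signals, 906, 686, 436 and 752 in the same order of samples, did overlap.

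Prdx2, a cytosolic peroxiredoxin abundant in neurons, stood at 10.85, 10.81, 10.93 and 10.73, nearly level and with overlapping animals. Prdx3, its mitochondrial relative, stood at 8.38, 8.59, 8.73 and 7.96. Sample 2-2 was the low one. Prdx4, which acts in the endoplasmic reticulum, stood at 7.25, 7.22, 8.29 and 8.38. Both samples of animal 2 lay above both of animal 1.

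Among the glutathione peroxidases, Gpx4, the selenoenzyme that reduces lipid hydroperoxides within membranes and so protects cells from ferroptosis, had deposited signals of 1513, 1729, 2651 and 2976. Its levels were 10.80, 10.96, 11.29 and 11.18. Gpx1, the general selenoenzyme for hydrogen peroxide, stood at 7.97, 8.03, 8.43 and 8.70. Both genes had non-overlapping animals with animal 2 higher. Gpx8, of the endoplasmic reticulum, stood at 2.94, 4.51, -0.43 and 2.14, and the secreted Gpx3 at 1.81, 2.96, -0.25 and 5.35. Gpx3 thus had its lowest and its highest value in samples of the same animal, below the bound. Gpx7, also of the endoplasmic reticulum, lay between 3.52 and 5.06.

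In the thioredoxin system, Txn1, the cytosolic thioredoxin, stood at 10.47, 10.30, 10.58 and 11.12, and animal 2 was the higher without overlap. Txn2, the mitochondrial form, stood at 8.33, 8.10, 7.79 and 8.05, with animal 1 the higher by a narrow margin. Srxn1, which repairs overoxidised peroxiredoxins, stood at 6.90, 6.72, 6.59 and 6.998 and passed on every array. Neither reductase passed on all 4 arrays. Txnrd1, which reduces Txn1, stood at 4.83, 6.29, 6.01 and 6.13 and passed on 3 arrays. Txnrd2, which reduces Txn2, stood at 7.04, 6.998, 3.42 and 6.88, and sample 2-1 alone lay below the bound. Msrb2, a mitochondrial methionine sulfoxide reductase, stood at 5.96, 5.61, 7.15 and 4.96, and sample 2-1 alone lay above it.

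Glutaredoxins use glutathione to free proteins of mixed disulfides. Glrx2, found in mitochondria and in other splice forms elsewhere, stood at 8.78, 8.42, 10.06 and 9.27. Glrx5, needed for iron-sulfur cluster assembly in mitochondria, stood at 9.82, 9.61, 10.16 and 10.33. Both had animal 2 higher without overlap, as did Glrx, the cytosolic form, at 6.49, 6.26, 7.68 and 6.83. Glrx3, a cytosolic iron-sulfur cluster carrier, stood at 2.38, 3.08, 3.16 and 3.14, below the bound. That value came from its single probe set annotated to it alone, and probe sets shared with another gene symbol were not used.

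Of 4 genes of glutathione synthesis and recycling, 2 passed on all 4 arrays. Gclc, the catalytic subunit of the rate-limiting enzyme, stood at 7.10, 7.12, 7.36 and 6.86, and Gss, which adds glycine in the last step, at 6.97, 6.90, 7.58 and 7.19, and these were the genes that passed. Gclm, the modifier subunit of the first enzyme, stood at 5.96, 6.13, 7.28 and 6.06, with 3 arrays above the bound and sample 2-1 apart from the others. Gsr, glutathione reductase, stood at 5.82, 5.93, 5.17 and 5.23 and passed on 1 array only.

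All 5 glutathione transferases passed on all 4 arrays. Gsto1, of the omega class, stood at 9.33, 9.23, 8.72 and 8.82, with animal 1 higher without overlap. Gstm5, of the mu class, stood at 8.12, 8.77, 9.12 and 9.61, with animal 2 higher without overlap. Gstp1, of the pi class, stood at 8.86, 8.75, 8.91 and 8.81, nearly the same in all samples. Gsta4, which clears aldehydes of lipid peroxidation, stood at 6.70, 6.40, 7.04 and 6.45, and Gstm1, of the mu class, lay between 7.29 and 8.54.

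Of the quinone and heme enzymes, Hmox2, the constitutive heme oxygenase of neurons, stood at 9.001, 9.002, 7.66 and 9.79. The samples of animal 1 were level with each other, and those of animal 2 lay on either side of them. The stress-induced genes Hmox1 and Nqo1, textbook targets of Nfe2l2, lay below the bound on every array, Hmox1 at 3.03, 1.81, 3.04 and 1.53 and Nqo1 at 4.54, 4.77, -0.64 and 3.75. Among the regulators, Park7, a redox-sensing protein mutated in some familial Parkinson's disease, stood at 11.17, 11.24, 11.53 and 11.14. Keap1 stood at 6.59, 6.75, 7.69 and 6.28, and passed on every array. Nfe2l2 itself stood at 6.17, 5.80, 4.97 and 5.80, and passed on 2 arrays, samples 1-1 and 2-2.

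Nfe2l2 binds the antioxidant response element, whose core is written TGACNNNGC. These letters were looked for on both strands of RefSeq promoter windows of the build GRCm38.p6, which run from 250 bases before to 50 bases after a gene's start. Of the 40 genes, 34 had a window, and 8 of these (23.5%) held the letters, against 14% of 27025 genes in all. Counted by window, 8 of their 46 windows held them, against 12.4% of all 32851 windows. For 5 measured genes the match lay before the start site, and it is shown in capitals with 10 bases on each side, read on the strand that carries TGAC, so that the genes of this set with the element's letters can be compared.
Nfe2l2 (chr2:75704885-75704913, minus strand): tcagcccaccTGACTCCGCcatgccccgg
Gstm5 (chr3:107895802-107895830, plus strand): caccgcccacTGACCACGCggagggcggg
Gclm (chr3:122245413-122245441, minus strand): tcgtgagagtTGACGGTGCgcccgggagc
Txnrd1 (chr10:82859104-82859132, minus strand): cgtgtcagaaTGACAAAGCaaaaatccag
Sod1 (chr16:90220696-90220724, minus strand): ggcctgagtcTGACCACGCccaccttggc
The other matches were in Prdx1, not measured, and, after the start site, in Srxn1 and Msrb2. The 5 genes shown did not share a pattern over the samples: Sod1 was nearly level, Gstm5 was higher in animal 2, Gclm stood apart in sample 2-1, and Txnrd1 and Nfe2l2 lay at the bound. A match is a description of letters, and binding was not measured.

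Animal 2 was then set against animal 1 with limma for every probe set that passed the bound on 2 or more arrays with Benjamini-Hochberg adjustment. Of 28 genes of the set that were tested, 0 were called at a false discovery rate of 0.05, and 0 of their 47 probe sets. Among all named genes 20 of 6597 (0.303%) were called, 11 higher and 9 lower in animal 2, and among all probe sets 42 of 10391 (0.404%). At an unadjusted p under 0.05 there were 7 of the 28 genes, against 17.9% of all named genes. Of them 5 had a positive difference, against 7.75% of all named genes, and 2 a negative one, against 10.1%. The median difference, animal 2 minus animal 1, was 0.09 over the 28 genes and -0.07 over all named genes tested, with 17 of the 28 above 0. In 9 of the 28 genes both samples of animal 2 lay above both of animal 1, against 22.7% of all named genes, and in 6 both lay below, against 26.5%.

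The differences of the 7 genes are given as log2 differences with the SE of limma (n = 2 samples per animal). Prdx4 had the largest positive one, at 1.09 ± 0.29 (adjusted p = 0.148), which is 2.14-fold. Glrx2 had a difference of 1.06 ± 0.32 (adjusted p = 0.171), or 2.09-fold. Gstm5 followed at 0.93 ± 0.31 (adjusted p = 0.203), Glrx5 at 0.53 ± 0.17 (adjusted p = 0.191) and Gpx4 at 0.35 ± 0.12 (adjusted p = 0.196). In the other direction, Sod2 had a difference of -0.63 ± 0.12, with the smallest adjusted p of the set (0.0898), and Cat of -0.96 ± 0.27 (adjusted p = 0.158). Other large differences had larger errors. They were 0.88 ± 0.44 for Glrx, 0.63 ± 0.56 for Gclm, -1.87 ± 1.07 for Txnrd2, -0.62 ± 0.38 for Gstm1 and -0.60 ± 0.66 for Nfe2l2. Single samples moved several of these values by over 1.5 times. Without sample 2-1 the difference was 0.66 for Glrx2 (adjusted p = 0.159), 0.46 for Glrx, 0.016 for Gclm, -1.05 for Gstm1 and -0.19 for Nfe2l2. Without sample 2-2 it was 1.24 for Gclm and -0.20 for Gstm1. Leaving out a sample of animal 1 gave 0.60 for Gstm5 (without 1-1) and -0.40 for Gstm1 (without 1-2).

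**Figure D2:**
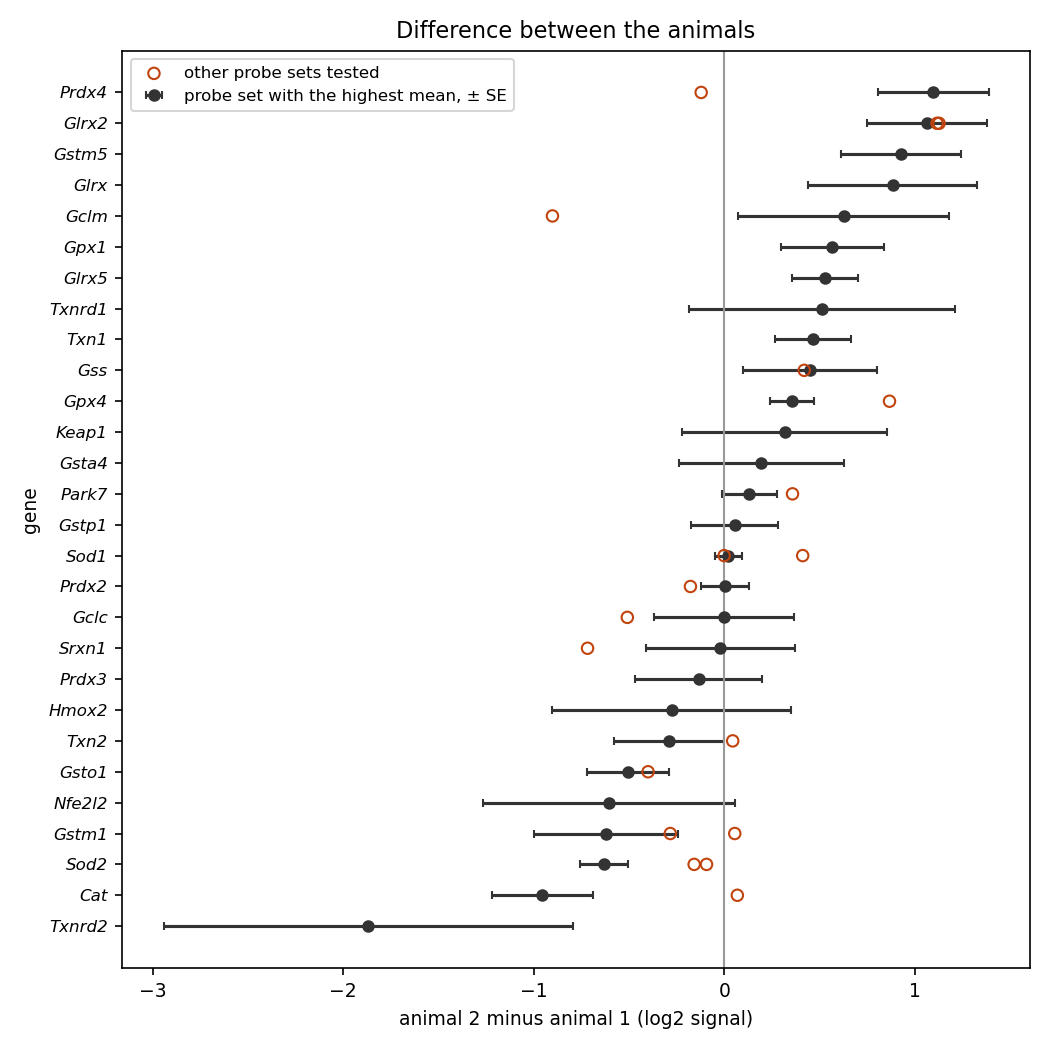
Difference between the animals (animal 2 minus animal 1, log2 signal, horizontal axis) for the 28 genes tested. Filled points with bars are the probe set with the highest mean and its limma SE, and open circles are other probe sets of the gene that were tested; among the filled points Prdx4 at 1.09 and Txnrd2 at -1.87 are the ends, and several genes have probe sets on both sides of 0.

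The absence of calls depended on the scale and on single samples. On the deposited scale, on which the median difference of all named genes tested was 0.46, 5 genes of the set were called: Sod1 (0.47 ± 0.11), Prdx4 (1.66 ± 0.34), Gpx4 (0.80 ± 0.16), Glrx2 (1.56 ± 0.29) and Glrx5 (0.99 ± 0.23). Sod1 lay at the shift of all genes, and on that scale 367 named genes were called higher and 6 lower, 5.66% in all. The differences of Sod2 and Cat there were -0.19 ± 0.18 and -0.46 ± 0.32, and neither was called. Without sample 2-2, Sod2 (-0.62 ± 0.13), Cat (-1.23 ± 0.24), Txnrd2 (-3.55 ± 0.49), Glrx2 (1.48 ± 0.25) and Hmox2 (-1.35 ± 0.24) were called, 5 of 27 genes tested, beside 8.72% of all named genes. Without sample 2-1, Sod2 (-0.65 ± 0.13) and Txn1 (0.74 ± 0.14) were called, 2 of 28 genes tested, beside 6.86% of all named genes, while Hmox2 stood at 0.79 ± 0.21 and Txnrd2 at -0.14 ± 0.35. With all 4 samples Txn1 had a difference of 0.46 ± 0.20, and without sample 2-2 of 0.19. In the fits without a sample of animal 2 the spread came from the pair of animal 1 alone, which was the closer pair, and the lone sample of animal 2 is assumed to vary like it. With the fit restricted to probe sets that passed on every array, Sod2 alone of 24 genes tested was called (adjusted p = 0.0487), beside 1.89% of all named genes.

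Several probe sets of 1 gene give more than 1 reading of the same RNA. Of 15 genes with at least 2 probe sets tested, 8 had differences of 1 sign on all of them and 7 had mixed signs. Glrx2 gave 1.06, 1.13 and 1.12 on its 3 probe sets, all of them above the bound on all 4 arrays. All 3 are of the kinds that can bind several transcripts or splice forms. Each was highest in sample 2-1, at 10.06, 8.95 and 8.19. Gpx4 gave 0.35 and 0.87, and Sod2 gave -0.63, -0.16 and -0.09, the first on the probe set used. Gss (0.45 and 0.42), Park7 (0.13 and 0.36) and Gsto1 (-0.51 and -0.40) also had 1 sign. So did Gclc and Srxn1, on the negative side. Prdx4 did not: the probe set used gave 1.09, and the next brightest, at 7.36, 7.54, 7.28 and 7.38, gave -0.12. Cat gave -0.96 on the probe set used and 0.07 on the other, and Gclm gave 0.63 and -0.90. The remaining mixed genes were Sod1, Prdx2, Txn2 and Gstm1, whose differences lay between -0.62 and 0.41.

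**Figure D3:**
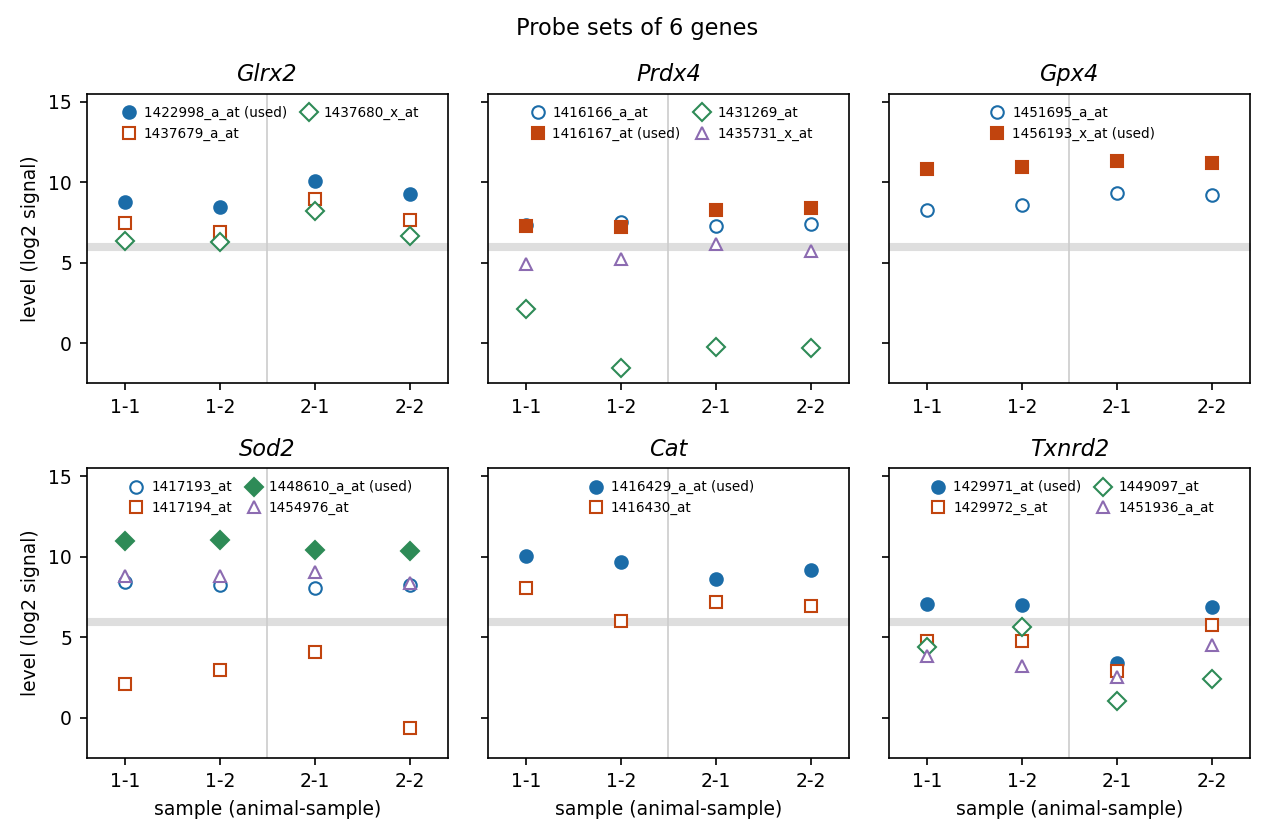
Level (log2 signal, vertical axis) on every probe set of 6 genes in the 4 samples, with animal 1 left and animal 2 right of the line, filled symbols for the probe set used and the background bounds in grey. The 3 probe sets of Glrx2 are all higher in animal 2 on average, those of Prdx4 are not, and all 4 probe sets of Txnrd2 are lowest in sample 2-1.

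Detection also varied between probe sets. In 9 genes, 1 probe set or more lay above the bound on all 4 arrays while another lay below it on all 4. These were Glrx, Gstm1, Keap1, Prdx4, Sod1, Sod2, Srxn1, Txn1 and Txn2. Sod1 had 3 probe sets above and 2 below. The second in brightness stood at 11.06, 10.94, 10.83 and 11.16, with an SD of 0.14, against 0.051 for the probe set used. The third stood at 7.43, 6.91, 7.31 and 7.85, with an SD of 0.39. Txn1 had 1 above, and its other one, at 4.37, 4.29, 5.24 and 5.02, below. Such genes are counted as above the bound by their brightest probe set.

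How steady the genes were over the samples differed widely between them. Over the 24 genes above the bound on all 4 arrays the median SD over 4 samples was 0.33, beside 0.34 over all 4908 named genes above it. The smallest SDs were those of Sod1 (0.051), Gstp1 (0.069) and Prdx2 (0.079). Of the 1009 genes within 0.5 of the mean level of Gstp1, 1.09% had a lower SD. The largest were those of Hmox2 (0.89), Glrx2 (0.71), Prdx4 (0.63), Gstm5 (0.63) and Glrx (0.62). Of genes within 0.5 of its level, 97.9% had a lower SD than Hmox2 and 95.7% had a lower SD than Glrx2. The median SD of neighbouring genes was 0.44 near the level of Gclc and 0.12 near that of Sod1. Against such neighbours, 12 of the 24 genes lay below the median.

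**Figure D4:**
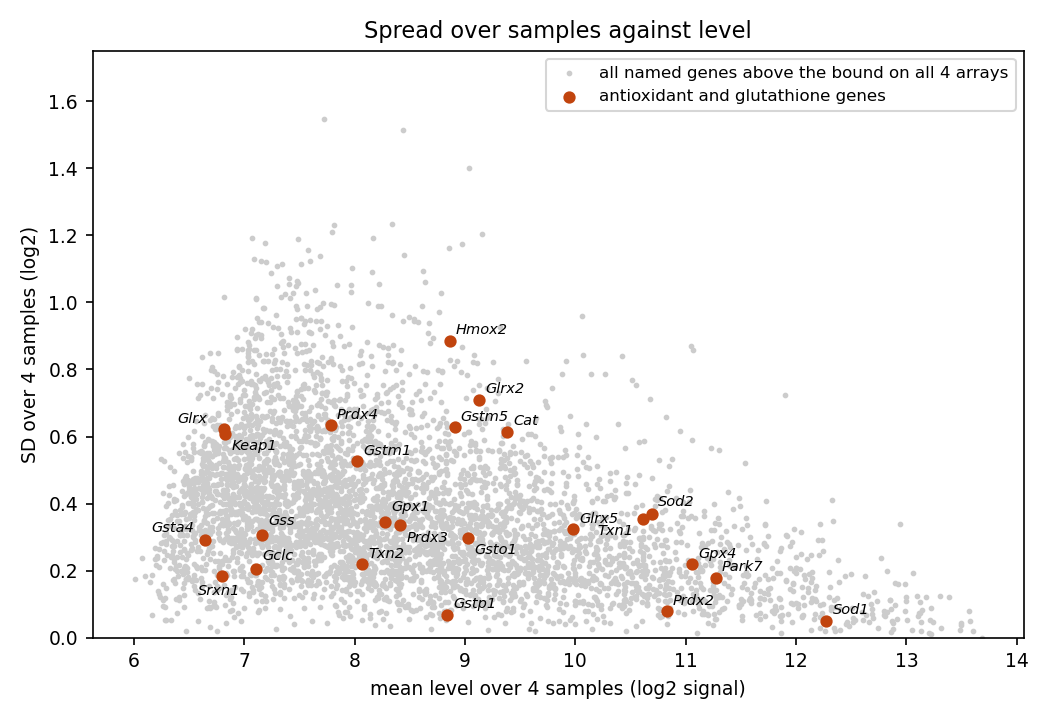
SD over 4 samples (log2, vertical axis) against mean level (log2 signal, horizontal axis) for all 4908 named genes above the bound on all 4 arrays (grey) and the 24 antioxidant and glutathione genes among them (orange, named). Sod1, Prdx2 and Gstp1 lie near the bottom edge, and Hmox2, Glrx2 and Cat near the upper edge at their level.

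The samples of animal 1 were the closest pair, in these genes as in all named genes. The median absolute difference over the 24 genes was 0.16 between the samples of animal 1 and 0.40 between those of animal 2, beside 0.21 and 0.35 over all named genes. Between animals it was 0.40 to 0.48, beside 0.39 to 0.41. Sample 2-1 lay farthest from the median of the 4 in 12 of the 24 genes and in 33.8% of all named genes.

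Gstm1, Prdx1, Prdx6, Gstp1, Nfe2l2 and Hmox1 are known to be expressed mainly or strongly in glia. Of these 6, 4 were measured: Gstm1 and Gstp1 passed on all 4 arrays, Nfe2l2 on 2 and Hmox1 on none. Gstm1 stood at 8.12, 8.54, 8.13 and 7.29, with no order between the animals. The Bergmann glia markers Slc1a3 (10.55, 10.37, 10.32 and 10.24) and Gja1 (11.95, 12.06, 11.39 and 11.48) passed on all 4 arrays, and in both genes animal 1 was the higher, while Hopx (11.52, 11.58, 11.75 and 11.48) overlapped. Glul, Fabp7 and Gfap were higher in animal 2 without overlap, 3 of the 16 glial markers tested, against 22.7% of all named genes. Gfap passed on 2 arrays only. Of the 16, 8 were lower without overlap, against 26.5% of all named genes. Of the 17 glial markers Sox9 lay below the bound on every array. Their part in the levels of Gstm1, Gstp1 and Nfe2l2 was not tested. Of 12 microglia markers only Csf1r passed on all 4 arrays, and Cx3cr1, P2ry12 and Aif1 lay below the bound on every array. The summed signal of the microglia list was 277 to 404 in animal 1 and 174 to 188 in animal 2. This sum is not a reading of the whole list. Of the 12 markers 10 lay below the bound on every array, and only Csf1r, at 7.81, 7.52, 6.05 and 6.36, was tested. The oligodendrocyte markers passed in 4 of 13 cases, among them Cnp (11.73, 11.72, 11.26 and 10.82) and Mbp (10.27, 9.96, 10.37 and 10.13), while Mog and Sox10 lay below it on every array. Their summed signal was 5246 to 5452 in animal 1 and 3531 to 4724 in animal 2. The markers did not share a direction. Of 4 tested, Mbp and Olig1 had positive differences (0.13 and 0.52), and Cnp and Ugt8a negative ones (-0.69 and -0.98). Of 10 vessel markers 2 passed, Slc2a1 and Rgs5. Of 4 red cell genes listed, 2 were measured, Hba-a1 and Alas2, and both lay below the bound on every array. The globin genes Hbb-bs and Hbb-bt were not measured. Red cells are rich in Prdx2, Cat and Gpx1, and their part in these levels was not tested.

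Granule cell markers lay lower in animal 2. All 7 that were tested had negative differences, 0 of them called, with Zic1 at -1.29 ± 0.18 and Neurod1 at -1.97 ± 0.33. Of 16 glial markers tested, 0 were called, 6 had positive and 10 negative differences. The negative differences of Sod2 and Cat went in the same direction as those of the granule cell list, and the part of other cells in them was not tested. The positive ones of Prdx4, Glrx2, Gstm5, Glrx5 and Gpx4, none of them called, went in the direction of the Purkinje cell markers. Of these 12 markers 9 had positive differences and 1, Pcp2 (0.57), was called (adjusted p = 0.0409, limma). A difference of either sign takes the direction of the granule or the Purkinje cell list. The part of the mix of cells in these differences was not tested.

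Beyond the 40 genes, 66 of 71 other genes of glutathione, thioredoxin and NADPH metabolism and of Nfe2l2 regulation were measured, and 28 (42.4%) passed the bound on all 4 arrays. Selenow, a small selenoprotein, stood at 13.08, 13.04, 13.18 and 13.14. Txnl1, a thioredoxin-like partner of the proteasome, stood at 11.94, 11.81, 11.39 and 11.48, and Hagh, a hydrolase of the glyoxalase pathway, at 11.51, 11.47, 11.47 and 11.58. The metallothionein Mt1 stood at 11.38, 11.41, 11.69 and 11.73 and Oxr1, an oxidation resistance gene, at 10.98, 10.94, 10.60 and 10.55. Of these, Mt1 and Selenow were higher in animal 2 without overlap, and Txnl1 and Oxr1 lower. Of all 36 other pathway genes tested, 10 were higher and 9 lower without overlap, against 22.7% and 26.5% of all named genes. By role, 5 of 6 genes grouped under NADPH supply, a group that includes the NAD kinase Nadk, passed on all 4 arrays. So did 8 of 9 in a mixed group that holds genes of aldehydes and metals beside Oxr1, Pon2 and Ephx1. Of 15 other transferases 2 passed, Mgst1 and Mgst3, and of 3 other glutathione peroxidases 0. Slc7a11, the cystine carrier that feeds glutathione synthesis and is typical of glia, lay below the bound on all 4 arrays, at -1.10 to 3.38.

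Between the animals, 36 of these genes were tested and 0 were called (limma), against 0.303% of all named genes. At an unadjusted p under 0.05 there were 5 of the 36, against 17.9% of all named genes. Of them 2 had a positive difference, against 7.75%, and 3 a negative one, against 10.1%. The largest positive differences were those of Txndc12 (0.99 ± 0.36) and Sqstm1 (0.82 ± 0.46). The largest negative ones were those of the carbonyl reductase Cbr3 (-2.03 ± 0.52, adjusted p = 0.142) and the amino acid carrier subunit Slc3a2 (-1.14 ± 0.50). Without sample 2-1 Cbr3 was called, 1 of 35 genes tested, beside 6.86% of all named genes. Without sample 2-2 Slc3a2 and Txnl1 were called, 2 of 34, beside 8.72%. The median difference was -0.13, against -0.07 over all named genes tested.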

How the data were processed

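Laser-captured Purkinje cells of 4 samples (2 animals, 2 samples each) were measured on Affymetrix mouse arrays after several rounds of RNA amplification, which can raise the spread of dim genes. The deposited values are intensities, 1 per probe set, and the submitters' processing notes name GCOS. The sources used here do not give its version or algorithm. Of 45101 probe sets, 64 controls were left out, and 34945 carried 1 gene symbol, 932 several and 9160 none. No columns of other samples were present.

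Intensities below 0.1 were set to 0.1, taken as log2 and quantile-normalized in limma 3.58.1 (R 4.3.3), because the range of the arrays' 2% trimmed means was 46.6% of their mean. An array's background bound was the 95th percentile of 54 measured genes of 59 listed as specific to organs other than brain. Probe sets above it on at least 2 arrays entered a limma fit of animal 2 against animal 1 with a mean-variance trend and Benjamini-Hochberg adjustment over all of them or over all named genes, at a false discovery rate of 0.05. Its replicates are samples of the same animal, so a difference is one between these 2 animals.

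The members and lists were chosen with earlier results of these data known. Values per sample are given for the 2 highest genes and the lowest of each role, for the 5 largest differences each way, for genes whose probe sets disagree, for the 5 highest other pathway genes with the 2 largest differences each way, and for leading and defining markers. Further genes are named where a count of few genes, or all of a role, is described. Alternatives were the scale, the offset, the probe set of a gene, the bound, the filter, the trend, the sample number as a block and each sample left out. Promoter windows are those of RefSeq, GRCm38.p6.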

Additional observations from a re-analysis of the deposited data

Results flagged for a closer look

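In 3 of 37 genes 1 sample stood apart from the other 3 by Dixon's test at the 95% level, which chance meets in about 1 of 20 groups. Txnrd2, the mitochondrial thioredoxin reductase, had a level of 3.42 in sample 2-1, against 6.88 to 7.04 in the others. All 4 of its probe sets were lowest in that sample, and 3 of them lay below the background bound on every array. Gclm, the modifier subunit of glutamate-cysteine ligase, had a level of 7.28 in sample 2-1, against 5.96 to 6.13 in the others. Its other probe set had no such high value there, at 6.36, 5.96, 6.03 and 4.48 in samples 1-1, 1-2, 2-1 and 2-2. Glrx3 had a level of 2.38 in sample 1-1, against 3.08 to 3.16 in the others, all of them below the bound.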

How the results depend on the processing

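The count of genes above background moved to 13 of 29 without probe sets of the kinds _s_at, _x_at and _a_at, which may bind more than 1 transcript. With 1 sample left out the count ran from 24 to 26. The count of the other pathway genes moved to 18 of 66 with the median over probe sets, where 16.8% of all named genes passed. Without such probe sets it was 17 of 57, against 20.1% of all named genes. It ran from 28 to 31 with 1 sample left out. The count of called genes was 0; it was 5 on values as deposited, 1 with the filter at all 4 arrays, and 0 to 5 with 1 sample left out. For the other pathway genes it was 2 of 36 tested on values as deposited (Selenow and Mt1), beside 5.66% of all named genes. The median difference was 0.58 on values as deposited and 0.28 with arrays scaled to 1 median, where the median of all named genes was 0.46 and 0.15, and ran from -0.014 to 0.25 with 1 sample left out. The median SD was 0.46 on values as deposited and ran from 0.27 to 0.36. Without such probe sets, the difference turned to 0.068 for Cat, 0.054 for Gstm1 and -0.0017 for Sod1. It turned to -0.14 for Gclm with the median over probe sets and to 0.24 for Hmox2 on values as deposited. With 1 sample left out it ran from -1.35 to 0.79 for Hmox2 and from -0.034 to 0.083 for Sod1. The cause was not tested.

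All named genes called numbered 20, and 373 on values as deposited, 44 with arrays scaled, 25 with the offset, 0 with the median over probe sets, 5 without such probe sets, 0 without the trend, 2 without the filter and 93 with the stricter one. With the sample number as a replicate block, which pairs nothing in the labels, 97 were called and 0 of either list. Without sample 1-1 or 1-2, 0 were called, without 2-1 426 and without 2-2 533. The median SD of genes near the level of Gclc was 0.44 and near that of Sod1 0.12, so values near the bound are the less precise.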
